A study of Mus musculus with 12 samples.

Results

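The comparison described here set immature CD8 single-positive thymocytes against immature CD4 single-positive thymocytes, both taken from mice that had lost Zfp148 and Zfp281 in developing T cells. It used 6 of the study's 12 libraries, 3 titled double knockout (dKO) ImCD8 and 3 titled dKO ImCD4, chosen by their sample titles. The question was which lineage genes still separated the populations when both factors were lost. The other 6 libraries were 3 control ImCD8 and 3 control ImCD4. They served to show whether a difference between the lineages was larger, smaller or similar with the factors present. They also entered the filter on low counts, the scaling and the shared estimate of spread behind the dKO tests.

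All mice carried loxP sites in both genes (Zfp148 fl/fl; Zfp281 fl/fl). In dKO mice Cre recombinase under the Cd4 promoter acts from the stage at which thymocytes switch on Cd4, which comes before the lineages separate. Control mice carried the floxed genes without Cre, and an effect of Cre itself cannot be told apart from the loss of the genes. The labels do not state the ages of the mice. Thymocytes were sorted by flow cytometry. The ImCD4 gate took CD44 low, CD4+ CD8- cells that were negative for the MHC class I protein H2-Kb and positive for CD69. The ImCD8 gate took CD44 low, CD8+ CD4- cells positive for TCR beta and CD69, with no gate on H2-Kb. The gates therefore differed in more than the coreceptor. In every comparison below, a difference of maturation stage set by the gates cannot be told apart from a difference of lineage. Libraries were made from small amounts of RNA with a SMARTer low-input kit. In all 6 ImCD8 libraries the genotype label contradicts the title: those titled dKO are labelled as lacking Cre. Groups follow the titles, and the levels of the targeted genes given below go with the titles.

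Zfp148 and Zfp281 encode zinc finger proteins that bind GC-rich DNA. Thymocytes that have passed positive selection choose between the CD4 helper and the CD8 cytotoxic fate. The factor ThPOK, encoded by Zbtb7b, holds the CD4 fate and represses cytotoxic genes, while RUNX3 holds the CD8 fate and silences Cd4 and Zbtb7b. Gata3 and Tox act before Zbtb7b on the CD4 side, and signals from cytokine receptors act on the CD8 side. Newly selected cells carry CD69 and signs of recent TCR signalling. As they mature they gain MHC class I, interferon-stimulated genes and receptors needed to leave the thymus.

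Each dKO library held 8335932 to 10943143 counts in genes and 18769 to 20305 genes with at least 1 count, and both ranges overlapped between the lineages. The first principal component of the 6 dKO libraries carried 77.3% of the variance and separated ImCD8 from ImCD4. The dKO libraries of the same group correlated at 0.983 to 0.992 in log2 CPM, and those of different lineages at 0.927 to 0.945. On the third component of all 12 libraries (5.31% of the variance) replicate 3 of each group stood apart from the other two. Leaving those 4 libraries out moved the number of members called by at most 2 per direction in each gene list below apart from glycolysis, where 5 rather than 10 were lower. Levels are given as CPM, counts relative to the TMM-scaled library size, for replicates 1, 2 and 3 in that order or as mean ± SD over 3 libraries. A log2 difference is ImCD8 minus ImCD4, with its standard error (SE). A gene is called where the edgeR quasi-likelihood test gave a Benjamini-Hochberg adjusted p below 0.05 over the 13383 genes tested, and an adjusted p below comes from that test unless another fit or a left-out library is named beside it. In bulk libraries, fewer cells of a type and less RNA per cell cannot be told apart.

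Transcripts of the targeted genes were low in both dKO populations. Zfp148 (ENSMUSG00000022811.17, chromosome 16, 33380836 to 33504363, plus strand) measured 67.7, 68.9 and 63.0 CPM in dKO ImCD4 and 45.6, 62.8 and 56.3 CPM in dKO ImCD8, against means of 180.2 and 165 CPM in control ImCD4 and control ImCD8. Zfp281 (ENSMUSG00000041483.14, chromosome 1, 136624901 to 136630053, plus strand) measured 18.4, 16.2 and 21.4 CPM in dKO ImCD4 and 14.9, 13.3 and 10.2 CPM in dKO ImCD8, against 486 and 119 CPM in the controls. For both genes every dKO library lay below every control library of its population, and the dKO ImCD8 libraries lay below the dKO ImCD4 libraries. The residual Zfp148 signal differed by a log2 of -0.27 ± 0.09 (adjusted p = 0.026), and that call was lost in the fit of the 6 dKO libraries alone (adjusted p = 0.0767) and without dKO ImCD4 replicate 1, dKO ImCD4 replicate 2 or dKO ImCD8 replicate 1 (0.0673 to 0.122). Residual Zfp281 differed by -0.54 ± 0.15 (adjusted p = 0.009), which was lost without the 4 libraries that stand apart (log2 difference -0.30, adjusted p = 0.0623). In controls Zfp281 differed by a log2 of -2.03 between the lineages, and the change of its difference was 1.49 ± 0.19 (adjusted p = 0.0017). The labels do not say which exons carry loxP sites, so residual counts do not measure intact transcript.

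The lineages differed across much of the transcriptome in the absence of both factors. Of 13383 genes, 5853 (43.7%) were called, 2960 (22.1%) higher and 2893 (21.6%) lower in dKO ImCD8. A difference of at least 2-fold was called for 1781 genes (13.3%), 1072 (8.01%) higher and 709 (5.3%) lower. The libraries of the lineages did not overlap for 6939 genes (51.8%). Counts of list members below are read against these shares. Scaling by library size alone moved the median gene to -0.06 and the split of calls to 2548 higher and 3435 lower (42.6% higher, against 50.6%), and 5441 of the 5853 calls were shared.

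The CD4 programme still marked dKO ImCD4 cells. Of 15 CD4-lineage genes tested, 11 were lower in dKO ImCD8, 3 were higher and 1 was not called. Their median log2 difference was -2.43, against -0.001 over all genes tested. Zbtb7b, the gene for ThPOK (ENSMUSG00000028042.15, chromosome 3, 89377644 to 89394776, minus strand), measured 138, 122 and 236 CPM in dKO ImCD4 and 0.127, 0.0920 and 0.114 CPM in dKO ImCD8. All dKO ImCD8 libraries were near 0, with 3 counts in total against 5017, a ratio of ImCD4 to ImCD8 of 1485 (95% counting interval 507.9 to 7204). Its adjusted p was 4.40e-07. Within dKO ImCD4, replicate 3 was the highest.

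Cd4, the coreceptor gene and a check of the gate (ENSMUSG00000023274.14, chromosome 6, 124864692 to 124888221, minus strand), measured 1338, 1384 and 1417 CPM in dKO ImCD4 and 11.3, 7.91 and 3.75 CPM in dKO ImCD8. Its log2 difference was -7.51 ± 0.29 (adjusted p = 6.74e-09), and no library of one group came near the other. Gata3, a regulator upstream of Zbtb7b (ENSMUSG00000015619.10, chromosome 2, 9857078 to 9890034, minus strand), measured 411, 451 and 469.9 CPM in dKO ImCD4 and 73.8, 77.7 and 62.4 CPM in dKO ImCD8, a log2 difference of -2.64 ± 0.09 (adjusted p = 8.71e-12). Every dKO ImCD8 library kept a clear Gata3 level, well below the lowest dKO ImCD4 library. Cd40lg, the helper ligand for CD40 on B cells and dendritic cells, measured 249, 256 and 258 CPM in dKO ImCD4 and 8.51, 7.91 and 6.03 CPM in dKO ImCD8, a log2 difference of -5.08 ± 0.13 (adjusted p = 4.02e-13). The dKO ImCD4 libraries were close to each other, and the dKO ImCD8 libraries were all low.

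The other CD4-lineage genes that were lower in dKO ImCD8 spanned log2 differences from -4.63 to -0.90. Tnfrsf4, the costimulatory receptor OX40, went from 91.4 ± 11.1 CPM in dKO ImCD4 to 3.70 ± 1.04 CPM in dKO ImCD8. The chemokine receptor gene Ccr4 went from 265 ± 56.6 to 29.9 ± 9.24 CPM and the protease gene Lgmn from 27.3 ± 5.07 to 2.67 ± 0.546 CPM. Tox, a nuclear factor needed for CD4 cells, went from 639 ± 128 to 223 ± 48.6 CPM. Izumo1r, which encodes folate receptor 4, differed by -2.19 ± 0.15, and the sialyltransferase gene St8sia6 by -2.43 ± 0.21. Icos, a costimulatory receptor, had the smallest called difference, -0.90 ± 0.08. The members that went the other way were Il21r, the receptor for interleukin 21, with 201, 226 and 185 CPM in dKO ImCD4 and 537, 527 and 559.8 CPM in dKO ImCD8 (log2 difference 1.41 ± 0.08), and Foxp3 and Cxcr5, both below 3 CPM in every dKO library. Foxp3 marks regulatory T cells and Cxcr5 follicular helper cells. Ctla4, an inhibitory receptor, overlapped at 8.19 ± 1.70 and 9.74 ± 1.40 CPM (adjusted p = 0.3).

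**Figure D1:**
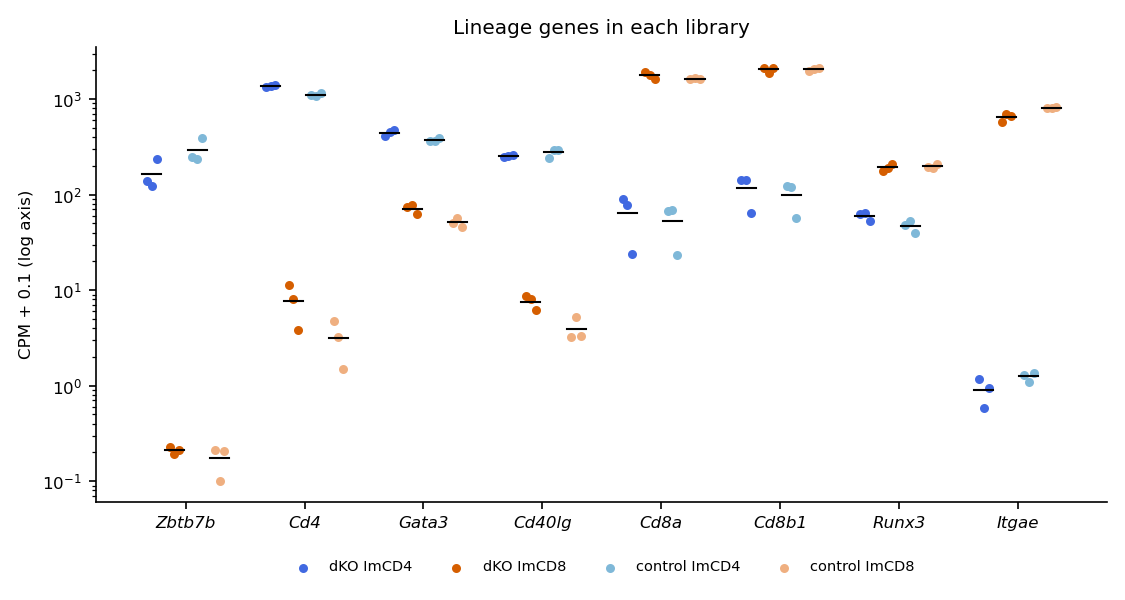
CPM of 8 lineage genes (x axis) in each of the 12 libraries (y axis, log scale after adding 0.1 CPM). The groups are coloured and set side by side within each gene. Points are libraries and bars are group means. Zbtb7b, Cd4, Gata3 and Cd40lg are higher in both ImCD4 groups, and Cd8a, Cd8b1, Runx3 and Itgae in both ImCD8 groups, with no overlap between the dKO lineages for any of the 8.

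The CD8 and cytotoxic programme marked dKO ImCD8 cells. Of 22 listed genes, 19 passed the filter on low counts, which keeps a gene that is high in 1 group only, and 17 of these were higher in dKO ImCD8, none lower. The median log2 difference was 4.23, or 4.13 with Gzmk, which had no count in dKO ImCD4, set at its lower bound. Cd8a (ENSMUSG00000053977.13, chromosome 6, 71373427 to 71379173, plus strand) measured 89.1, 78.2 and 23.7 CPM in dKO ImCD4 and 1906, 1769 and 1631 CPM in dKO ImCD8, and Cd8b1 (ENSMUSG00000053044.8, chromosome 6, 71322788 to 71337494, plus strand) measured 142, 143 and 63.6 CPM and 2133, 1859 and 2132 CPM. These encode the chains of the CD8 coreceptor, and the gate used the protein. Transcripts remained in CD8- dKO ImCD4 cells, least in replicate 3, and the groups did not overlap. The log2 differences were 4.79 ± 0.53 for Cd8a (adjusted p = 9.30e-05) and 4.13 ± 0.36 for Cd8b1 (adjusted p = 1.33e-05).

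Runx3, the CD8 lineage factor (ENSMUSG00000070691.10, chromosome 4, 135120652 to 135177990, plus strand), measured 62.1, 64.4 and 52.5 CPM in dKO ImCD4 and 178, 189.6 and 211 CPM in dKO ImCD8. The dKO ImCD8 libraries were all higher, by a log2 of 1.69 ± 0.10 (adjusted p = 2.63e-09), while dKO ImCD4 kept a measurable level. Itgae, which encodes the CD103 integrin chain of CD8 cells (ENSMUSG00000005947.11, chromosome 11, 73090583 to 73147446, plus strand), measured 1.07, 0.478 and 0.855 CPM in dKO ImCD4 and 575, 696 and 661 CPM in dKO ImCD8. It was close to absent in dKO ImCD4, and its log2 difference of 9.62 ± 0.15 had an adjusted p of 1.72e-16. Nkg7, a cytotoxic granule gene (ENSMUSG00000004612.9, chromosome 7, 43437073 to 43438249, plus strand), measured 3.75, 2.78 and 1.71 CPM in dKO ImCD4 and 384, 352 and 609.9 CPM in dKO ImCD8, with dKO ImCD8 replicate 3 the highest (log2 difference 7.32 ± 0.33, adjusted p = 3.61e-08).

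Effector genes of cytotoxic cells were part of the difference. Klrd1, an NK receptor chain, averaged 24.2 ± 14.8 CPM in dKO ImCD8 and 0.282 ± 0.152 CPM in dKO ImCD4, with replicate 3 of dKO ImCD8 highest. Cst7, a cathepsin inhibitor, went from 1.43 ± 0.384 to 63.1 ± 15.3 CPM, the chemokine gene Xcl1 from 1.45 ± 0.188 to 23.9 ± 4.90 CPM, and the adhesion gene Crtam from 1.64 ± 0.313 to 31.2 ± 2.75 CPM. Ctsw, a cathepsin of cytotoxic cells, went from 57.2 ± 6.43 to 402 ± 33.6 CPM and the pore-forming protein gene Prf1 from 3.50 ± 0.947 to 17.1 ± 4.32 CPM. The effector factors Eomes and Tbx21 reached 3.63 ± 0.676 and 3.16 ± 1.40 CPM in dKO ImCD8, from 0.433 ± 0.306 and 0.256 ± 0.0379 CPM. Among granzyme genes, Gzma averaged 2.42 ± 0.328 CPM in dKO ImCD8, and Gzmb had 43 counts against 1, a ratio of 48.4 (95% counting interval 8.24 to 1956). Ccl5, an effector chemokine, averaged 4.49 ± 2.20 CPM in dKO ImCD8 against 0.129 ± 0.0546 CPM, and its call was lost in limma-voom (adjusted p = 0.07). Gzmk and Fasl overlapped between the lineages and were not called. Gzmm (29 against 19 counts), Ifng (13 against 2) and Klrk1 (15 against 0) lay below the filter.

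RUNX factors bind words such as TGTGGT, and promoters were searched for this one on both strands (its reverse complement is ACCACA), a search chosen after the data were seen. Promoter sequence came from the RefSeq table for GRCm38.p6, which held 8271 of the 13383 tested genes, and the 250 bases before each start were read. Of all these promoters, 1074 (13%) held the word. It was in 7 of 13 CD8-list promoters (Cst7, Gzma, Gzmb, Nkg7, Prf1, Runx3 and Xcl1) and in 4 of 10 CD4-list promoters (Il21r, Izumo1r, Lgmn and Zbtb7b). Among genes at least 2-fold higher in dKO ImCD8 the share was 18.6%, and among those at least 2-fold lower 13.2%. It was also in 5 of 11 promoters of the costimulatory and checkpoint list (45.5%), and in 6.9 to 28.6% of those of the other 13 lists. A G-rich word (GGGGAGGGG), searched because the lost zinc finger factors bind G-rich DNA, was in 760 of all promoters (9.19%), in 7.79% of the genes at least 2-fold higher in dKO ImCD8 and in 11.3% of those at least 2-fold lower. Of 42 promoters of genes whose lineage difference changed, 4 held it (9.52%). A match is a description of letters, not a binding site or a cause. The windows below show the match in capitals, 5′ to 3′ on the gene's strand, with no match to another searched motif inside them: Zbtb7b chr3:89387728-89387787 (minus strand, 89 bases before a RefSeq start that lies inside the annotated gene, so that the whole window is intronic), Nkg7 chr7:43437028-43437087 (plus, 83 before, with 15 bases in the first annotated exon), Cst7 chr2:150570200-150570259 (plus, 188 before), Gzmb chr14:56262336-56262395 (minus, 34 before) and Xcl1 chr1:164935713-164935772 (minus, 227 before). For Gzmb, sequence shortly after the RefSeq start was not found near the start of an annotated transcript of the gene. The windows are shown because these genes separated the dKO lineages in both directions while sharing the word.
Zbtb7b: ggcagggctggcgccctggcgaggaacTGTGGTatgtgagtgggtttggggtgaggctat
Nkg7: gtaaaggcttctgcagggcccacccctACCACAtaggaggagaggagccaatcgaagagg
Cst7: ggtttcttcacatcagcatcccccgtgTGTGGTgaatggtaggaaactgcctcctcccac
Gzmb: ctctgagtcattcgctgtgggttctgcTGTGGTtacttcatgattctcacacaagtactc
Xcl1: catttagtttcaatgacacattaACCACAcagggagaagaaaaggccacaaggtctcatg

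Transcription regulators of lineage choice split in both directions. Of 36 tested, 12 were higher in dKO ImCD8, 15 lower and 9 not called, with a median of -0.09. Klf2, which controls egress genes, measured 72.0, 65.0 and 73.6 CPM in dKO ImCD4 and 623, 542 and 748 CPM in dKO ImCD8 (log2 difference 3.18 ± 0.14, adjusted p = 3.27e-10). The dKO ImCD8 libraries lay far above the dKO ImCD4 libraries, replicate 3 highest. Foxo1, which acts on Klf2 and Il7r, went from 101 ± 18.1 to 312 ± 13.0 CPM and Klf3 from 16.9 ± 6.50 to 110.4 ± 14.3 CPM. Irf1, an interferon-pathway factor, and Zbtb7a, a relative of Zbtb7b, were higher by 1.21 ± 0.09 and 0.70 ± 0.08.

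Id2, an inhibitor of E proteins, was among the regulators lower in dKO ImCD8, with 804, 753 and 914 CPM in dKO ImCD4 and 80.8, 65.8 and 86.3 CPM in dKO ImCD8. Its log2 difference was -3.41 ± 0.15 (adjusted p = 1.39e-09), and the groups stood well apart. Id3, of the same family, was higher in dKO ImCD8, from 231 ± 13.2 to 358 ± 42.2 CPM. Runx1, the related factor of earlier thymocytes, went from 159 ± 6.05 to 36.0 ± 2.40 CPM. Its partner Cbfb overlapped (adjusted p = 0.12). The chromatin organiser Satb1 went from 6169.7 ± 508 to 1681 ± 411 CPM, and the HMG-box gene Tox2 from 45.2 ± 6.86 to 4.66 ± 2.87 CPM. The T cell factors Lef1, Tcf7, Ets1, Bcl11b and Bach2 were all lower, by log2 differences of -1.19, -0.56, -1.22, -1.03 and -1.03. Patz1, which represses Cd8 genes in earlier thymocytes, differed by -0.63 ± 0.07.

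Genes of the TCR apparatus went both ways. Of 26 TCR complex and signalling genes, 5 were higher in dKO ImCD8, 9 lower and 12 not called, against 22.1% and 21.6% of all genes. The median of 0.02 turned to -0.04 under library size scaling, which left 3 higher, as did leaving out dKO ImCD8 replicate 2. Cd3e (1035 ± 63.4 and 1222 ± 109.5 CPM in dKO ImCD4 and dKO ImCD8), Cd3d and Lck were not called. The clearest members were Cd28, the costimulatory receptor, lower from 1086 ± 66.3 to 322 ± 88.3 CPM, and the phosphatase gene Ptpn22, higher from 119 ± 18.7 to 283 ± 31.1 CPM. The adaptor genes Lcp2 and Grap2 moved in opposite directions, by -0.63 ± 0.06 and 1.17 ± 0.12. Trac, the TCR alpha constant gene, differed by 0.23 ± 0.07, a call lost under library size scaling (adjusted p = 0.0629), in the fit of the 6 dKO libraries (0.0525) and without any of 3 dKO libraries (0.0582 to 0.0972).

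Several TCR-induced genes were lower in dKO ImCD8. Of 29 tested, 11 were lower, 7 higher and 11 not called, and the median was -0.02. Without dKO ImCD4 replicate 1, 4 were higher. Cd69, whose protein was gated as positive in both populations, measured 554, 604 and 698 CPM in dKO ImCD4 and 194, 200.1 and 243 CPM in dKO ImCD8 (log2 difference -1.54 ± 0.10, adjusted p = 1.15e-08). All dKO ImCD8 libraries lay below all dKO ImCD4 libraries. Egr2, Nr4a1, Nfkbid and the phosphatase genes Dusp5 and Dusp6, all induced by TCR signals, differed by -1.47, -0.97, -1.35, -1.07 and -1.51. Irf4 went from 50.0 ± 10.9 to 16.1 ± 1.47 CPM. Nr4a2, a relative of Nr4a1, was higher in dKO ImCD8, from 8.18 ± 0.738 to 19.2 ± 3.63 CPM, and Nr4a3 was at 28.6 ± 5.74 and 28.2 ± 5.42 CPM with overlap.

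Cytokine receptor and signalling genes leaned to dKO ImCD8, with 16 of 29 higher, 6 lower and 7 not called (median 0.60). Il2rb, the receptor chain shared by interleukins 2 and 15, measured 73.0, 67.7 and 67.6 CPM in dKO ImCD4 and 444, 404 and 429 CPM in dKO ImCD8 (log2 difference 2.62 ± 0.08, adjusted p = 1.06e-12). Socs3, a feedback inhibitor of cytokine signalling, measured 0.624, 0.287 and 0.321 CPM in dKO ImCD4 and 55.5, 46.7 and 69.9 CPM in dKO ImCD8 (log2 difference 7.05 ± 0.27, adjusted p = 2.31e-11). For both genes the lineages were far apart and the libraries of each group alike. Il27ra, Jak3, Stat4 and Il18r1 were higher in dKO ImCD8 by 1.53, 0.96, 1.59 and 3.03. Il7r, the survival cytokine receptor chain, was lower, from 374 ± 18.6 to 119 ± 22.4 CPM, as was Socs1, another inhibitor, from 514 ± 115 to 215 ± 27.7 CPM. The interleukin 4 receptor gene Il4ra differed by -0.54 ± 0.07, Il12rb1 by -1.82 ± 0.29 and Il10ra by -1.77 ± 0.31. Il2rg, the common chain, was not called (adjusted p = 0.38).

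MHC class I genes were higher in dKO ImCD8, where the gates themselves differed: the ImCD4 gate removed H2-Kb positive cells and the ImCD8 gate did not. Of 22 tested, 19 were higher, none lower and 3 (Tap2, Calr and Pdia3) not called, with a median of 0.98. H2-K1, the gene of H2-Kb (ENSMUSG00000061232.16, chromosome 17, 33996017 to 34000347, minus strand), measured 282, 317 and 283 CPM in dKO ImCD4 and 2870.4, 2772 and 3384 CPM in dKO ImCD8 (log2 difference 3.35 ± 0.09, adjusted p = 7.04e-13). The difference at the transcript ran the same way as the gate. Other genes of the pathway were not gated directly, but an effect of the H2-Kb gate on them cannot be told apart from the lineage. B2m, the invariant chain, went from 1162 ± 47.8 to 4068 ± 394 CPM and H2-D1 from 1038 ± 91.5 to 3220.1 ± 50.3 CPM. H2-Q7 went from 6.71 ± 3.42 to 499 ± 117 CPM, and H2-Q6 had 1986 counts in dKO ImCD8 against 1, a ratio of 2236 (95% counting interval 400.9 to 88370). MHC class I genes are close copies, and the authors' counting may split reads among them. Nlrc5, the activator of the pathway, the immunoproteasome gene Psmb9 and the transporter gene Tap1 were higher by 1.33 ± 0.11, 1.29 ± 0.08 and 1.07 ± 0.09.

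Interferon-stimulated genes were higher as a group: 31 of 33 were higher in dKO ImCD8, 1 lower and 1 (Stat2) not called, with a median log2 difference of 0.997. Ifit3 measured 4.19, 1.82 and 1.82 CPM in dKO ImCD4 and 81.7, 61.0 and 56.1 CPM in dKO ImCD8 (log2 difference 4.63 ± 0.26, adjusted p = 1.70e-08). The lowest dKO ImCD8 library lay far above the highest dKO ImCD4 library. The antiviral genes Ifit1 and Mx1 went from 38.7 ± 11.6 to 190.4 ± 32.7 CPM and from 0.617 ± 0.488 to 10.7 ± 1.19 CPM. Irf7, the factor that amplifies interferon production, went from 83.2 ± 5.16 to 244 ± 17.5 CPM, and Ly6e, a surface protein gene, from 349.5 ± 40.3 to 988 ± 80.4 CPM. The exception was Samhd1, a nucleotide hydrolase, lower from 331 ± 45.2 to 71.2 ± 12.7 CPM. The list's summed CPM was 2379 to 2794 in dKO ImCD4 and 4557 to 5413 in dKO ImCD8.

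The core of the interferon response element, searched as GAAA, any 2 bases and GAAA again on both strands (TTTC, any 2 bases and TTTC as printed), was in 14 of 24 interferon-list promoters with sequence (58.3%) and in 276 of all 8271 (3.34%). Genes at least 2-fold higher in dKO ImCD8 held it in 8.46% and those at least 2-fold lower in 1.16%. The element does not overlap the RUNX word in the windows shown, and matches are descriptions as above. They are Ifit3 chr19:34583382-34583441 (plus strand, 122 bases before the start), Ifit1 chr19:34640779-34640838 (plus, 85 before, with a second match inside the window left in lower case) and Rsad2 chr12:26456538-26456597 (minus, 120 before). They are shown because most of the list was higher in dKO ImCD8 and these members were among its clear differences. Rsad2, an antiviral enzyme, differed by 2.02 ± 0.39 between the dKO lineages.
Ifit3: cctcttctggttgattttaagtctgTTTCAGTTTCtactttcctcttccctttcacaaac
Ifit1: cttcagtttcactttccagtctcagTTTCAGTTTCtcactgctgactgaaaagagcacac
Rsad2: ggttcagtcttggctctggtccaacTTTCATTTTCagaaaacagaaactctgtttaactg

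Receptors of migration and egress were higher in dKO ImCD8 in 10 of 20 members, lower in 6 and not called in 4. S1pr1, the receptor that leads cells out of the thymus, measured 7.14, 5.93 and 6.20 CPM in dKO ImCD4 and 217, 225 and 399 CPM in dKO ImCD8 (log2 difference 5.44 ± 0.38, adjusted p = 2.42e-06). Replicate 3 was the highest of dKO ImCD8, and all dKO ImCD4 libraries were low. Ccr7, which draws cells into the medulla, measured 278, 269 and 317 CPM in dKO ImCD4 and 755, 761 and 813 CPM in dKO ImCD8, a log2 difference of 1.43 ± 0.11 with no overlap. The integrin chain Itgb7, the partner of CD103, went from 91.1 ± 2.69 to 942 ± 148 CPM and S1pr4 from 12.1 ± 0.835 to 103 ± 10.3 CPM. Lower members were Ccr9, a cortical chemokine receptor gene, from 1739 ± 116 to 802 ± 48.8 CPM, and Plxnd1, from 114 ± 9.96 to 26.2 ± 7.32 CPM. Ccr8 was lower by -1.23 ± 0.24, a call lost without the 4 libraries that stand apart (adjusted p = 0.0656). Cd44, gated low in both, overlapped at 65.3 ± 10.9 and 72.0 ± 13.1 CPM.

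Genes of single-positive maturation were mostly higher in dKO ImCD8, with 15 of 23 higher, 7 lower and 1 not called (median 0.88, and 0.47 over the members above 5 CPM in 3 libraries). The summed CPM of the list went the other way without overlap, 11560.3 to 12278 in dKO ImCD4 and 8781 to 9112 in dKO ImCD8, with Itm2a the most abundant member that was lower. Itm2a, a membrane protein gene of immature thymocytes, measured 5876, 6264 and 5979 CPM in dKO ImCD4 and 412, 391 and 216 CPM in dKO ImCD8 (log2 difference -4.15 ± 0.23, adjusted p = 7.82e-08). The dKO ImCD8 libraries were all far lower, replicate 3 lowest. Ms4a4b went from 50.1 ± 13.5 to 1460.1 ± 44.2 CPM, Ms4a6b from 61.6 ± 13.6 to 548 ± 35.3 CPM and Slfn1, a growth-regulatory gene, from 37.0 ± 5.96 to 247 ± 10.6 CPM. Bcl2, the survival gene, was lower, from 666 ± 76.2 to 357 ± 54.4 CPM. Of 14 genes of the preceding double-positive stage that passed the filter, none was called higher, 5 were lower and 9 not called. Chst2 and Ephb6 were lower by -3.19 ± 0.22 and -1.63 ± 0.28. Rag1, the recombinase gene of that stage, measured 10.7, 0.670 and 0.962 CPM and 5.46, 4.97 and 0.341 CPM, with overlap and a high value in dKO ImCD4 replicate 1. Without the 4 libraries that stand apart, 2 members were called higher.

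**Figure D2:**
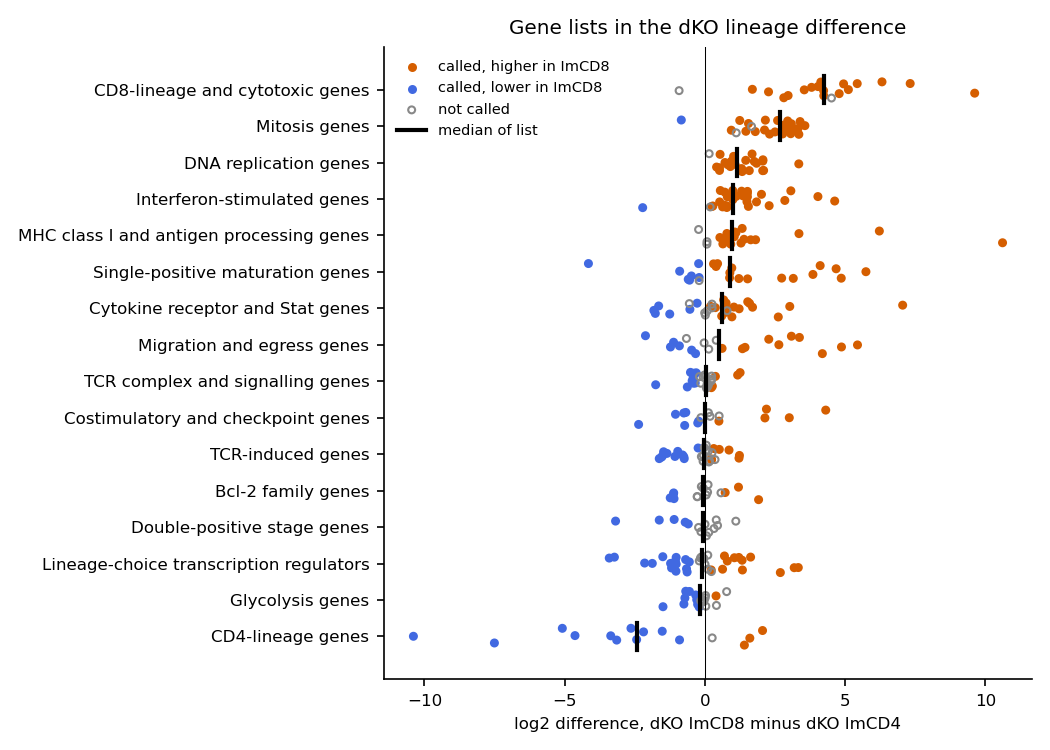
Log2 difference (ImCD8 minus ImCD4, dKO) on the x axis of each tested member of 16 gene lists on the y axis; filled points were called, open points were not, and the bar is the list median. The CD8, mitosis, replication, interferon and MHC class I lists lie mostly to the right of 0, the CD4 list mostly to the left with 3 called members on the right, and the TCR and regulator lists on both sides.

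Cell cycle genes were higher in dKO ImCD8. Of 26 DNA replication genes, 25 were higher, none lower and Fen1 not called, with a median of 1.16. Their summed CPM was 1013 to 1060 in dKO ImCD4 and 1911 to 2180 in dKO ImCD8. Mcm6, a subunit of the replicative helicase, measured 86.7, 57.7 and 62.2 CPM in dKO ImCD4 and 272, 196 and 234 CPM in dKO ImCD8 (log2 difference 1.76 ± 0.15, adjusted p = 5.75e-07), without overlap. Cdc6, a loader of that helicase, went from 4.45 ± 0.792 to 18.7 ± 1.08 CPM and Mcm10 from 1.05 ± 0.172 to 10.9 ± 0.886 CPM.

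Of 26 mitosis genes, 23 were higher in dKO ImCD8, 1 lower and 2 (Kif11 and Prc1) not called, with a median of 2.68. Their summed CPM was 213 to 275.5 in dKO ImCD4. In dKO ImCD8 replicate 3, at 353, was below replicates 1 and 2, at 565 and 573. Mki67, the proliferation marker, measured 6.24, 4.88 and 2.14 CPM in dKO ImCD4 and 51.9, 50.5 and 32.6 CPM in dKO ImCD8 (log2 difference 3.32 ± 0.47, adjusted p = 3.23e-04). Replicate 3 was again the lowest of each group, and the groups did not overlap. Top2a, a topoisomerase of dividing cells, went from 15.6 ± 5.52 to 77.9 ± 20.7 CPM. Kif23, a kinesin of cell division, was the lower member, from 162 ± 4.01 to 90.5 ± 4.49 CPM. Without the 4 libraries that stand apart, 25 mitosis genes and 25 replication genes were higher, and 19 and 25 with limma-voom.

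**Figure D3:**
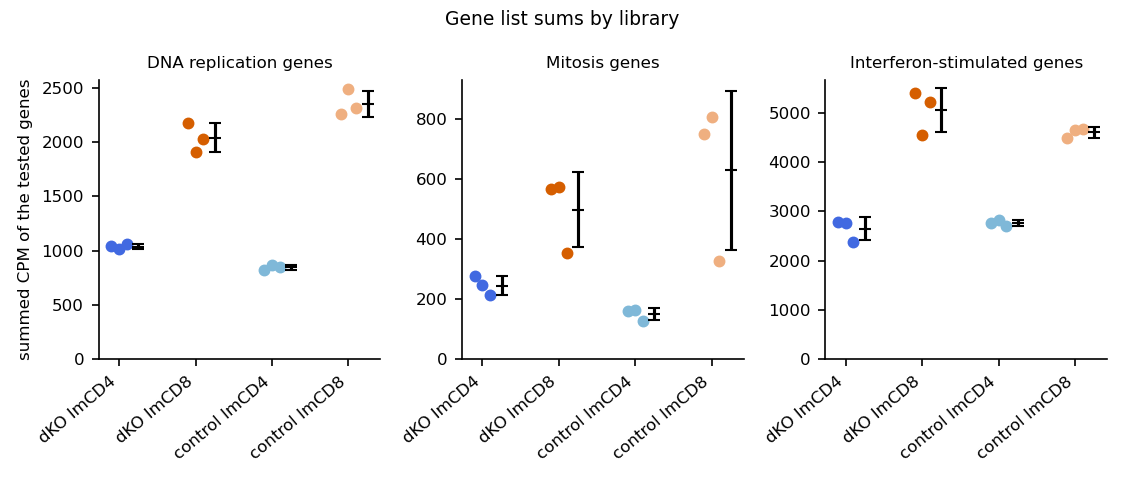
Summed CPM of the DNA replication, mitosis and interferon-stimulated lists (y axis, from 0) in each library by group (x axis); points are libraries and the mark with bar is the mean ± SD of 3 libraries. All 3 sums are higher in dKO ImCD8 than in dKO ImCD4 without overlap, and the mitosis sum of dKO ImCD8 replicate 3 (353) lies below the other two.

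E2F factors drive replication genes, and 4 words (TTTGGCGC, TTTCCCGC, TTTCGCGC and TTTGCCGC) were searched on both strands of the same promoters. They were in 7 of 22 replication promoters (31.8%) and in 349 of all 8271 (4.22%). Matches of these words can overlap each other but held no RUNX or interferon word in the windows shown. The windows are Cdc6 chr11:98907987-98908046 (plus strand, 138 bases before a start inside the annotated gene, outside its exons) and Mcm6 chr1:128359719-128359778 (minus, 47 before). They are printed because both members separated the lineages clearly. For Mcm6, as for Gzmb, sequence shortly after the RefSeq start was not found near the start of an annotated transcript.
Cdc6: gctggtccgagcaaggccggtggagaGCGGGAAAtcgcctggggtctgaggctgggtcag
Mcm6: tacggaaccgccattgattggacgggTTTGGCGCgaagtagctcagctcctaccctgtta

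Glycolysis genes leaned to dKO ImCD4: of 20 tested, 10 were lower in dKO ImCD8, 1 (Tpi1) higher and 9 not called. Without the 4 libraries that stand apart 5 of 19 were lower. Slc2a3, a glucose transporter gene, measured 73.7, 76.8 and 83.9 CPM in dKO ImCD4 and 25.1, 30.7 and 26.9 CPM in dKO ImCD8 (log2 difference -1.49 ± 0.09, adjusted p = 1.71e-09), with no overlap. The enzyme genes Aldoa and Eno1 were lower by -0.68 ± 0.07 and -0.55 ± 0.07. Among 15 Bcl-2 family genes that passed the filter, 3 were higher, 4 lower and 8 not called. The pro-apoptotic genes Bbc3 and Bcl2l11 were lower by -1.12 ± 0.10 and -1.11 ± 0.15, the protective Bcl2l1 by -1.10 ± 0.11, and pro-apoptotic Bmf was higher by 1.91 ± 0.26. Mcl1 was not called (adjusted p = 0.16).

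Of 16 costimulatory and checkpoint genes that passed the filter, 5 were higher in dKO ImCD8, 7 lower and 4 not called. Cd7 went from 22.9 ± 0.812 to 185 ± 10.1 CPM, Slamf6 from 23.4 ± 6.53 to 104 ± 16.0 CPM and the HVEM receptor gene Cd160 from 15.2 ± 0.965 to 69.7 ± 0.421 CPM. Cd86, a ligand of CD28 best known from antigen-presenting cells, measured 0.714, 0.191 and 0.428 CPM in dKO ImCD4 and 8.51, 9.11 and 9.89 CPM in dKO ImCD8, low in both and without overlap. The inhibitory receptor gene Cd200r1 and the ligand gene Cd274 (PD-L1) were lower, by -2.36 ± 0.16 and -1.05 ± 0.12.

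Markers of other cell types also moved with the lineages. Summed CPM was higher in dKO ImCD8 for the B cell list (424 to 529 against 131 to 163), the innate-like and NKT list (479.8 to 533 against 121 to 146), the erythroid list (50.4 to 85.5 against 17.0 to 28.7) and the thymic epithelial list (135 to 143 against 46.8 to 61.2). It was lower for the gamma-delta list (47.1 to 56.1 against 318 to 431), and it overlapped for the alpha-beta and myeloid lists. Each sum without overlap had an exact two-sided permutation p of 0.1, the smallest that 3 against 3 allows. Few members carried these sums. In the B cell list 2 of 8 were called higher, led by Ighm (70.9 to 387 CPM), while Ms4a1 and Pax5 had at most 1 count in any dKO group. In the innate-like list 2 of 9 were called higher, led by Il2rb, while Ncr1 and Klrb1b had no count. Below the filter, counts in dKO ImCD4 and dKO ImCD8 were 3 and 1 for Zbtb16 and 5 and 4 for Klra1. They were 0 and 24 for Klrb1c and 9 and 17 for Tyrobp. Erythroid Car2 (10.7 to 57.8 CPM) was the 1 called of 9, with Pf4 and Ppbp at 0. In the epithelial list Ly75 and Epcam were called of 10, with Foxn1 at 0 and 2 counts and Krt5 at 0 and 1. In the gamma-delta list Sox13 and Il17rb were lower, Tcrg-C2 and Cd163l1 higher, and Trdv4 had no count. The share of counts in mitochondrial genes was 1.27 to 1.70% in dKO ImCD8 and 0.633 to 0.961% in dKO ImCD4. Reads with more than 1 alignment made up 4.47 to 5.39% and 3.87 to 4.19%. The part of these measures in the gene differences was not tested.

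Outside the lists, the largest called differences included genes of adhesion and signalling. Higher in dKO ImCD8 were Cdh1, the E-cadherin ligand of CD103, with 832 counts against 3, a ratio of 312.3 (95% counting interval 106.5 to 1517), and the lipocalin gene Lcn4, with 305 counts against 0, at least 114.5-fold higher against a floor of 3 counts over the group. The adhesion receptor gene Adgrg5 went from 1.44 ± 0.374 to 212 ± 61.6 CPM and Fam101b from 0.732 ± 0.218 to 168 ± 29.2 CPM. Drc1 averaged 54.1 ± 31.7 CPM in dKO ImCD8, where replicate 3 was the highest. Golm1 had 202 counts against 3, most of them in dKO ImCD8 replicate 3 (17.2 CPM, against 2.92 and 2.58 CPM), and its call was lost with no filter (adjusted p = 0.0504).

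Lower in dKO ImCD8 was Il21, a helper cytokine gene, with 479 counts in dKO ImCD4 against 0, at least 141.8-fold. The steroid-metabolising enzyme gene Akr1c18 had 1319 counts against 1, a ratio of 1171 (95% counting interval 209.9 to 46300). Asb2, a ubiquitin ligase subunit, went from 143 ± 3.35 CPM in dKO ImCD4 to 1.35 ± 0.750 CPM in dKO ImCD8, the receptor gene Gpr153 from 73.3 ± 4.63 to 0.906 ± 0.340 CPM and Hap1 from 33.1 ± 4.57 to 0.203 ± 0.143 CPM. Myo6, a myosin gene, measured 562, 478 and 867 CPM in dKO ImCD4 and 4.06, 4.05 and 7.16 CPM in dKO ImCD8 (log2 difference -6.97 ± 0.33, adjusted p = 6.69e-08). Sox13, a factor known from gamma-delta T cells, measured 178, 190.0 and 285 CPM in dKO ImCD4 and 1.40, 2.48 and 2.50 CPM in dKO ImCD8 (log2 difference -6.64 ± 0.23, adjusted p = 1.09e-10). For both genes dKO ImCD4 replicate 3 was the highest and every dKO ImCD8 library was low. In controls their log2 differences were -4.35 and -4.14, and the changes did not pass the threshold (adjusted p = 0.14 and 0.089).

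The controls, which share no library with the dKO groups but entered the same fit, showed a similar picture of the lineages. In controls 6058 genes were called (45.3%), 3097 higher (23.1%) and 2961 lower (22.1%) in ImCD8, and the libraries did not overlap for 7546 (56.4%). Of the calls, 2346 were higher and 2180 lower in ImCD8 in both comparisons, which is 77.3% of the dKO calls and 74.7% of the control calls. Only 9 genes were called in opposite directions. A further 1318 genes were called in dKO and not in controls and 1523 in controls and not in dKO, and the difference between the comparisons itself was called for 7 genes of each set. Across 13383 genes the log2 differences correlated at Pearson r = 0.8945 and Spearman rho = 0.8171, a description across genes, which are not independent replicates. Of 1947 genes called at least 2-fold in controls (14.5%; 1075 higher, 8.03%, and 872 lower, 6.52%), 1627 were called in the same direction in dKO, and the median ratio of the dKO to the control log2 difference was 0.841. Of 1781 genes called at least 2-fold in dKO, 1536 were called in the same direction in controls, with a median ratio of control to dKO of 0.987.

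**Figure D4:**
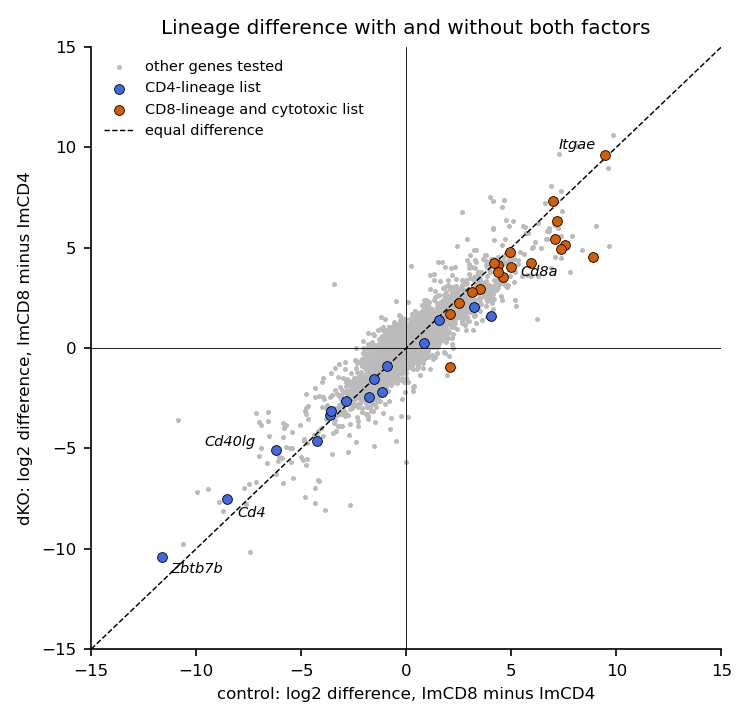
Log2 difference (ImCD8 minus ImCD4) in controls (x axis) and in dKO (y axis) for 13383 genes in grey, with CD4-lineage and CD8-lineage list members in colour; the dashed line marks equal differences. List members lie on the same side of 0 in both comparisons apart from Fasl, and the grey cloud follows the dashed line.

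The lineage lists kept their direction. The gates took CD4 or CD8 protein in dKO and controls alike, so they set the direction of Cd4, Cd8a and Cd8b1 in both. Both lists were also chosen with earlier results of these data known. All 14 called CD4-list members and all 17 called CD8-list members were also called in the same direction in controls, and the list medians were -1.79 and 4.93 there. Zbtb7b, Cd4 and Gata3 differed by -11.62, -8.52 and -2.86 in controls, and Cd8a, Runx3 and Itgae by 4.93, 2.09 and 9.46. The change was not called for any of these 6. For Zbtb7b that change was 1.23 ± 3.08, with 3 counts in dKO ImCD8 and 2 in control ImCD8. With so few counts the test could hardly call a change for this gene. Zbtb7b averaged 165 ± 61.8 CPM in dKO ImCD4 and 290.5 ± 84.5 CPM in control ImCD4. Gzmk and Fasl, not called in dKO, were called higher in control ImCD8. The change was not called for Fasl (adjusted p = 0.33). Gzmk had 8 counts in dKO ImCD8 and 169 in control ImCD8. It had 0 counts in both ImCD4 groups, so the change of its difference could not be estimated. Cd40lg was the list member with a called change: its difference was -6.22 in controls, where control ImCD8 averaged 3.80 ± 1.10 CPM. The change of 1.13 ± 0.22 (adjusted p = 0.026) was lost in limma-voom and in 8 of 12 fits that left out 1 library (0.0556 to 0.12). Medians of the MHC class I, interferon, replication and mitosis lists were 0.84, 0.96, 1.57 and 3.80 in controls.

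The lineage difference itself changed in 58 of 13383 genes (0.433%), 24 more positive (0.179%) and 34 more negative (0.254%) in dKO than in controls. That number depended on the processing: it was 140 with DESeq2, 233 with no filter on low counts, 106 without the 4 libraries that stand apart and 200 with a model term for them. The change was at least 2-fold for 28 genes (0.209%), 13 more positive (0.0971%) and 15 more negative (0.112%). Of the 58, 17 had a larger difference in dKO, 24 a smaller one and 17 a difference of the other sign. The sign was read whether or not a difference was called, and some of these differences were near 0. Only 5 of the 58 were called in opposite directions in dKO and controls. Id2 had the largest change among lineage regulators: its difference was -3.41 in dKO and -1.84 in controls, where control ImCD4 averaged 696 ± 61.5 and control ImCD8 195 ± 39.8 CPM. The change was -1.57 ± 0.20 (adjusted p = 0.003), and the dKO means were 824 CPM in ImCD4 and 77.6 CPM in ImCD8. Il2rb kept its direction with a smaller difference in dKO. Control libraries measured 36.3, 38.5 and 32.5 CPM in ImCD4 and 448, 447 and 491 CPM in ImCD8, a log2 difference of 3.69, and the change was -1.07 ± 0.11 (adjusted p = 1.59e-04). The dKO ImCD4 libraries lay above all control ImCD4 libraries. Cd160 likewise had a difference of 3.58 in controls and 2.19 in dKO, with dKO ImCD4 at 15.2 ± 0.965 CPM and control ImCD4 at 4.71 ± 0.725 CPM.

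Pdgfb, a growth factor gene, had opposite differences. It measured 26.3, 21.7 and 37.2 CPM in dKO ImCD4 and 14.7, 11.1 and 7.62 CPM in dKO ImCD8, against 1.53, 1.55 and 2.65 CPM in control ImCD4 and 6.28, 7.89 and 8.29 CPM in control ImCD8. It was lower in ImCD8 in dKO (-1.35 ± 0.24) and higher in controls (1.95), a change of -3.30 ± 0.41 (adjusted p = 0.0017). Zdhhc15, a palmitoyltransferase gene, measured 14.0, 13.2 and 16.5 CPM in dKO ImCD4 and 44.8, 48.1 and 48.7 CPM in dKO ImCD8, and its difference of 1.70 ± 0.10 was 0.25 in controls (change 1.45 ± 0.13, adjusted p = 6.97e-05). Uhrf1, a factor that maintains DNA methylation at replication, differed by 0.52 in dKO and 1.61 in controls. Its mean was 81.0 CPM in dKO ImCD4 and 37.9 CPM in control ImCD4, while the ImCD8 means were 116 and 116 CPM. Cd86 differed by 4.31 in dKO and 1.73 in controls, and Slc2a3 by -1.49 and -0.55.

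**Figure D5:**
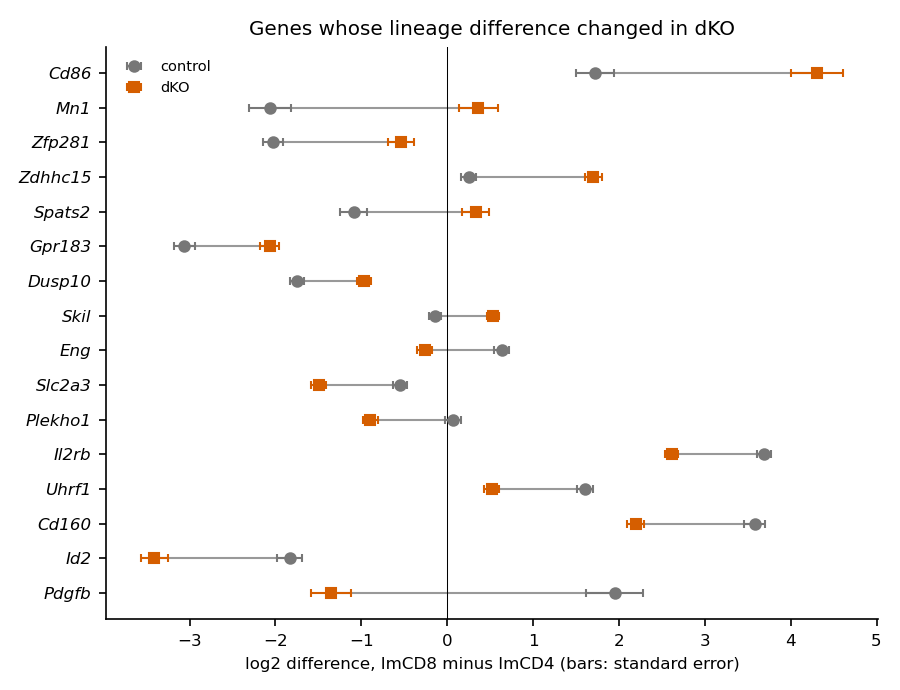
Log2 difference (ImCD8 minus ImCD4, x axis) in controls (grey circles) and in dKO (orange squares) for 16 genes (y axis). The genes had the 8 smallest p for the change in each direction once clone, predicted and similar names were left out. Bars are ± SE. Pdgfb lies on opposite sides of 0, Id2 and Slc2a3 are further below 0 in dKO, and Il2rb and Cd160 are nearer to 0 in dKO.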

How the data were processed

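Messenger RNA was counted in sorted mouse thymocytes, in 12 libraries of 4 groups of 3. The submitters' processing notes name cutadapt 1.18, STAR 2.6.1, HTSeq and mm10. Annotation and strand setting: not given in the sources used here. Reads of overlapping and antisense genes therefore cannot be told apart. The authors deposited raw counts per gene symbol (53656 genes and 5 summary lines per library, the latter left out). Groups follow sample titles.

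The test was run with edgeR 4.0.16 under R 4.3.3 (filterByExpr with minimum count 10 and total 15, leaving 13383 genes, TMM scaling, robust quasi-likelihood fit of all 12 libraries with a mean for each of 4 groups, leaving 8 residual degrees of freedom). Contrasts were ImCD8 minus ImCD4 in dKO, the same in controls, and their difference. Tests were two-sided with Benjamini-Hochberg adjustment over all genes and a threshold of 0.05. The scripts were tested on simulated data. The labels do not say whether replicates were separate animals, and p-values measure only how these libraries vary, in part perhaps technically. No pair of libraries agreed within counting noise (chi-square per degree of freedom at least 4.92 among dKO pairs).

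The members, the gene lists and the alternatives were chosen with earlier results of these data known, and the promoter search after the data were seen. Named genes were the targeted genes, the 12 largest called differences per direction in dKO with at least 5 CPM and no overlap, every called member of the CD4 and CD8 lists, up to 6 called members per direction of each other list, the 8 smallest p per direction for the change, and the 2 most abundant members of each marker list. Predicted, clone, pseudogene, receptor segment, mitochondrial and sex-linked names were left out of the ranked sets. A few list members that the rule names are not reported here. Members not called, and the other members of marker lists, are named outside that rule, as are Tox2, Patz1, Cdc6, Id3, Tcf7 and further list members chosen for their known roles after their values were seen. Counting intervals are exact 95% binomial intervals and, like the floor of 3 counts, cover counting error only. Coordinates come from GENCODE vM21 (GRCm38). Alternatives were RLE factors, library size alone, DESeq2 1.42.0, limma 3.58.1 voom with quality weights, no filter, over 5 CPM in 3 libraries, a 2-fold minimum, the 6 libraries of a comparison alone, each library left out, and the 4 libraries that stand apart left out or given a model term.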

Additional observations from a re-analysis of the deposited data

Results flagged for a closer look

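The results here are genes whose ImCD8 minus ImCD4 difference was itself different in dKO and in controls, by the test of that difference in edgeR. The value is the dKO log2 difference minus the control log2 difference, and no explanation was tested.

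More positive in dKO were Zdhhc15 (1.45, adjusted p = 6.97e-05), Zfp281 itself (1.49, 0.0017) and Mn1 (2.42, 0.0026). Mn1 did not separate the dKO lineages (3.81 and 4.91 CPM, overlapping) but was lower in control ImCD8 (8.91 to 2.11 CPM). Cd86 changed by 2.58 (adjusted p = 0.0066), with 3.37 CPM in control ImCD4 against 0.444 CPM in dKO ImCD4. Spats2 (1.42, 0.0066) was not called in dKO and lower in control ImCD8. Gpr183, an oxysterol receptor gene (0.99, 0.0098), and Dusp10, a phosphatase gene (0.78, 0.0045), were lower in ImCD8 in both, by less in dKO. Skil (0.67, 0.0045), an inhibitor of Smad signalling, was higher in dKO ImCD8 and not called in controls.

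More negative in dKO were Pdgfb (-3.30, adjusted p = 0.0017), Id2 (-1.57, 0.003), Cd160 (-1.39, 6.67e-04), Uhrf1 (-1.09, 7.48e-04), Il2rb (-1.07, 1.59e-04) and Slc2a3 (-0.94, 0.0014). Plekho1 (-0.96, 0.0017) was at 124 CPM in dKO ImCD4 and 66.8 CPM in dKO ImCD8, and near equal in controls (51.3 and 53.5 CPM). Eng, a receptor chain of the TGF-beta family (-0.89, 0.0026), was lower in ImCD8 in dKO (60.1 to 50.2 CPM) and higher in controls (43.6 to 67.7 CPM).

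A further 7 members of the gene lists passed the threshold with all 12 libraries but lost it when single libraries were left out. The other 35 of the 58 changes are in no list and outside the ranked sets, and were not followed through the alternatives. They include the smallest p of all, for the clone-named RP23-302C16.2 (-2.48, adjusted p = 2.58e-05). That transcript averaged 129.9 CPM in dKO ImCD4 and 29.6 CPM in dKO ImCD8, and 5.81 and 7.35 CPM in control ImCD4 and control ImCD8. Ccr7 (0.85, adjusted p = 0.017) had a difference of 1.43 in dKO and 0.58 in controls, and it was lost without dKO ImCD4 replicate 1, dKO ImCD4 replicate 2 or control ImCD8 replicate 1 (adjusted p = 0.0596 to 0.0639). Cd40lg (1.13, 0.026) was lost in 8 of 12 such fits (0.0556 to 0.12). Socs3 (2.48, 0.031) was lost in 5 such fits (0.0515 to 0.135) and in limma-voom (0.101). Cd7 (-0.71, 0.013) was lost without dKO ImCD4 replicate 1 (0.0507). Il17rb (1.92, 0.016) was lost without dKO ImCD4 replicate 2, dKO ImCD8 replicate 1 or dKO ImCD8 replicate 2 (0.0513 to 0.0557). The helicase genes Mcm3 (-0.62, 0.034) and Mcm7 (-0.54, 0.033) were each lost without most single libraries and without the 4 that stand apart (0.0528 and 0.0863).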

How the results depend on the processing

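A minimum of 2-fold left 1781 calls in dKO (1072 higher, 709 lower), 1947 in controls (1075 and 872) and 28 for the change of the difference (13 and 15). Under the other alternatives the dKO count stayed between 4953 and 6606 of 5853, within 1.5 times. Leaving out each library in turn gave 4953 to 5454 dKO calls (2554 to 2718 higher, 2399 to 2811 lower), 5323 to 5569 control calls (2780 to 2876 and 2543 to 2693) and 39 to 65 calls for the change (15 to 27 more positive, 22 to 38 more negative). The 15 came without control ImCD8 replicate 3 and the 22 without dKO ImCD4 replicate 2. The count of changed differences, 58 (24 and 34), was 140 with DESeq2 (58 and 82), 233 with no filter (103 and 130), 106 without the 4 libraries that stand apart (44 and 62) and 200 with a model term for them (72 and 128). The cause was not tested. Of 188 named or called genes in dKO, 57 results over all alternatives lost the call, 4 gained it and 2743 kept direction and side. Hbb-bs, at -0.26 and not called, turned sign without the 4 libraries (0.15), without dKO ImCD4 replicate 1 (0.45), without dKO ImCD8 replicate 2 (0.27) and without dKO ImCD8 replicate 3 (0.26), and ranged from -2.85 to 0.45 over the fits without 1 library. For 23 changed differences, 43 results lost the call and 417 kept it. No paired analysis was possible because the titles number the libraries in one run, with no number shared between groups. With 3 libraries a group, exact tests of single measures cannot go below 0.1, and genes with few counts in both lineages, such as the granzymes, carry wide errors.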

Other observations

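A few genes of killer cells, singled out after their values were seen, had different counts in dKO and control ImCD8. No test of that difference is reported here. Klrk1, the NKG2D receptor gene, had 15 counts over the 3 dKO ImCD8 libraries and 92 over the 3 control ImCD8 libraries, and none in either ImCD4 group. Gzmk had 8 and 169 counts, and Gzmb 43 and 249, with control ImCD8 replicate 3 the highest for Gzmb (7.51, 3.38 and 16.8 CPM). Prf1, Ccl5, Nkg7 and Ctsw also had lower means in dKO ImCD8 than in control ImCD8. Their means in dKO and control ImCD8, in that order, were 17.1 and 45.3, 4.49 and 44.2, 449 and 682, and 402 and 545 CPM. Crtam (31.2 and 36.8 CPM) and Eomes (3.63 and 6.31 CPM) had lower means in dKO too. Cst7 (63.1 and 47.7 CPM) and Dapl1 (20.4 and 12.2 CPM) had higher means in dKO ImCD8. Xcl1 (23.9 and 24.1 CPM) and Tbx21 (3.16 and 2.97 CPM) were near level. Klrd1 and Gzma overlapped between the groups. Klrd1 averaged 24.2 ± 14.8 and 18.1 ± 10.9 CPM and Gzma 2.42 ± 0.328 and 2.59 ± 1.01 CPM in dKO and control ImCD8. Klrb1c, an NK receptor gene, went the other way, with 24 counts in dKO ImCD8 and 2 in control ImCD8. Klrk1 and Klrb1c were below the count filter, so the main fit did not test their lineage differences. The change of the lineage difference was not called for Gzmb, Klrd1, Gzma, Prf1, Ccl5, Nkg7 or Ctsw. For Gzmb that change was -2.42 ± 3.48, with 1 count in each ImCD4 group. Ly6c1 averaged 4.15 ± 0.916 CPM in dKO ImCD8 and 0.415 ± 0.332 CPM in control ImCD8, against 0.230 ± 0.0787 and 0.366 ± 0.276 CPM in dKO and control ImCD4. Its lineage difference was 4.11 in dKO and 0.21 in controls, and the change of 3.90 ± 0.91 did not pass the threshold (adjusted p = 0.089). Ly6c1 too was singled out after its values were seen, and no cause was tested.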
